A study of Mus musculus with 25 samples.

Results

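The H3K27me3 peaks of mouse chromosome 7 are described here. All peaks on chromosome 7 were taken from each of the 3 peak lists of the study, and no other choice was made. Chromosome 7 held 13467 of the 213014 peaks in the lists. It held 4920 of 86235 peaks in the list of mouse embryonic fibroblast (MEF) line A, 2535 of 81972 in that of MEF line B and 6012 of 44807 in that of the neural progenitor cells (NPC). The regions were chosen by the peak calls themselves, so the values are a description, with no test. Short forms such as "in B" mean MEF line B.

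The study concerns the memory of silencing at Polycomb target genes. H3K27me3 was profiled in 18 of its 25 libraries, all with antibody clone C36B11 of Cell Signaling Technology. The NPC were derived from embryonic stem (ES) cells, were wild-type and were profiled by CUT&RUN. They were untreated, under 2 uM UNC1999 with 4 uM A395 (inhibitors of Polycomb repressive complex 2), or after washout of both compounds, with 2 libraries each; the submitters later corrected the labels of 4 of these 6. Both MEF lines were c-myc-immortalized and were profiled by ChIP-seq. Line A (C2) was wild-type, Ezh2 -/-, or Ezh2 -/- with retroviral pMSCV-Ezh2, with 2 libraries each. Line B (C26) was wild-type, Ezh2 -/- in a form the labels call reversible, or carried an endogenous rescue of Ezh2, with 2 libraries each. Another 7 libraries of line A (1 input, 2 of H3K36me3, 2 of H3K4me3 and 2 of RNA polymerase II) are labelled Ezh2 -/- but carry EZH2 in their titles. Each MEF line is 1 immortalized line, and nothing says that replicates were separate cultures. Each cell system has 1 peak list, with no value per library. The sources used here do not say which libraries entered a list, nor the peak threshold, the control or the pooling, and the depth is unknown. The line A list carries the label C2plusT and the line B list C26_Ezh2, and these labels are not explained. Whether the MEF lists match in Ezh2 state is thus unknown. A difference between lists is therefore a difference between 2 sets of calls, and neither genotype nor treatment can be compared. NPC and MEF lists also differ in assay, which cannot be told apart from cell type.

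H3K27me3 is trimethylation of lysine 27 of histone H3. It is written by Polycomb repressive complex 2, with Ezh2 or Ezh1 as the catalytic subunit, and it marks promoters and broad domains of silent developmental genes. Mouse chromosome 7 carries many olfactory and vomeronasal receptor genes, the kallikrein proteases and the beta-globins. It also carries imprinted clusters around Peg3, Snrpn and Ube3a, and Igf2 and Kcnq1, in which 1 parental allele is silent.

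Promoters that differ in the lists covering them are shown first, because the account of kept and lacking targets turns on such genes. Each run is the 250 bases before a RefSeq start (build GRCm38.p6, the assembly of mm10), 5' to 3' on the strand of the gene, with each CG in capitals. Fgf4 (chr7:144861136-144861385, plus strand) encodes a growth factor of the early embryo and was under a peak over all 250 bases in all 3 lists. Nkx1-2 (chr7:132599638-132599887, minus strand), a homeobox gene, was covered over all 250 bases in both MEF lines and over 0 in NPC. Mesp2 (chr7:79810477-79810726, plus strand), a regulator of somite segmentation, was covered in line A only. Nps (chr7:135268369-135268618, plus strand), which encodes neuropeptide S, was covered in line A and NPC and over 0 bases in line B. Ndn (chr7:62348027-62348276, plus strand), an imprinted gene expressed from the paternal allele, was covered in line B and NPC and over 0 bases in line A. Hbb-bs (chr7:103827929-103828178, minus strand), an adult beta-globin, and Olfr516 (chr7:108846009-108846258, minus strand), an olfactory receptor, were covered in NPC only.
Fgf4: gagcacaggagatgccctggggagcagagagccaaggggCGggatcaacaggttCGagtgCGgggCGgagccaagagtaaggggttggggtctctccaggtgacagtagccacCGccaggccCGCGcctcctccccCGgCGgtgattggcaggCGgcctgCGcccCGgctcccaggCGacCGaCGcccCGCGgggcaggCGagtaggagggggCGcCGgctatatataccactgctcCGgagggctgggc
Nkx1-2: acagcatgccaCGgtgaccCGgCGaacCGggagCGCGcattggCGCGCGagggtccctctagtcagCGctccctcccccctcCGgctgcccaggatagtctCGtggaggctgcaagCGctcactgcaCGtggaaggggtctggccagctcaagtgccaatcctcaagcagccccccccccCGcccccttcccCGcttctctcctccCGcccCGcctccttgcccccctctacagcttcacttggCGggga
Mesp2: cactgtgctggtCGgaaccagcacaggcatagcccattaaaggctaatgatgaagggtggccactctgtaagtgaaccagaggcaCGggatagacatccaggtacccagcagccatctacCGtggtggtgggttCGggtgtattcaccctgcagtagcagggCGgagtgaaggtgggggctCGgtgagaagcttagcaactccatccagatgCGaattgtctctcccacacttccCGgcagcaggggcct
Nps: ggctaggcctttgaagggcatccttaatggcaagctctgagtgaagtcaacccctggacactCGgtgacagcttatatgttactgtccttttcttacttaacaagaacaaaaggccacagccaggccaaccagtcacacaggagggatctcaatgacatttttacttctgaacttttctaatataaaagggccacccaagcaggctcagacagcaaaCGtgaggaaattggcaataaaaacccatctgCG
Ndn: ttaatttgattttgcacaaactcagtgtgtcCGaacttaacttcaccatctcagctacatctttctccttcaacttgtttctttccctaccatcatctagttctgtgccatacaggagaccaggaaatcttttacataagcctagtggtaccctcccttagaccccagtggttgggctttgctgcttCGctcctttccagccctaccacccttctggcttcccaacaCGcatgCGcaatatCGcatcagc
Hbb-bs: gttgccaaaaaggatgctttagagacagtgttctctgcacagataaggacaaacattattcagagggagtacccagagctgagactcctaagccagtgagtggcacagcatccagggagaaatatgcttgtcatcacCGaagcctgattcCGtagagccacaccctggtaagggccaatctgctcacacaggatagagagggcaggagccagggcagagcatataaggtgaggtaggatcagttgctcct
Olfr516: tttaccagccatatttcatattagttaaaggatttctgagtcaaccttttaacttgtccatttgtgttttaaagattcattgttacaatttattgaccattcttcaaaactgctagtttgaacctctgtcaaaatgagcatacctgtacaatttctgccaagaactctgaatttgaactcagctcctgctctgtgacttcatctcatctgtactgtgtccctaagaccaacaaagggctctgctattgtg
The motif counted is CG, which reads the same on both strands. Fgf4 held 21 and Nkx1-2 held 19 in the 250 bases. Mesp2 held 8, Ndn 5, Nps 3, Hbb-bs 2 and Olfr516 none. These are single examples, and their order is not that of their classes. Class medians were taken over a slightly longer window, described below, with all gene families in. The median was 6.5 CG for genes of all 3 lists, 11.5 for both MEF lines only and 8 for line A only. It was 14 for line B only, 3 for NPC only, 4.5 for line A with NPC and 12 for line B with NPC. Genes with no peak had 8. Among 1742 chromosome 7 genes with a promoter in the RefSeq table, 87.8% held at least 1 CG in the same 250 bases and 38.5% held 10 or more. Each of these genes counted with 1 start. Over all 31396 autosomal starts of the table, where a gene can count more than once, the shares were 92.4% and 38.3%. The sets thus differ in unit.

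Chromosome 7 was covered to an ordinary extent in line A, sparsely in line B and densely in NPC. Peaks covered 10.6% of its 142.3 Mb span in line A, beside 7.41% to 17.3% on the other 18 autosomes (median 10.7%). In line B they covered 3.62%, beside 7.20% to 13.1% (median 9.95%), which made chromosome 7 the least covered of the 19 autosomes. In NPC they covered 15.2%, beside 3.00% to 7.997% (median 4.99%), which made it the most covered. The line B value was 0.364 times the median of the other autosomes and the NPC value 3.05 times. The same order showed in peak number. Line B had 17.8 peaks per Mb on chromosome 7 and at least 30.2 on every other autosome, while NPC had 42.3 and at most 23.4 elsewhere. Chromosome 7 makes up 5.92% of the autosomal span. It held 5.46% of the covered length of line A, 2.18% of that of line B and 15.8% of that of NPC. The lists hold no reads, so the number of copies of chromosome 7 in these cultures was not analysed here.

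**Figure D1:**
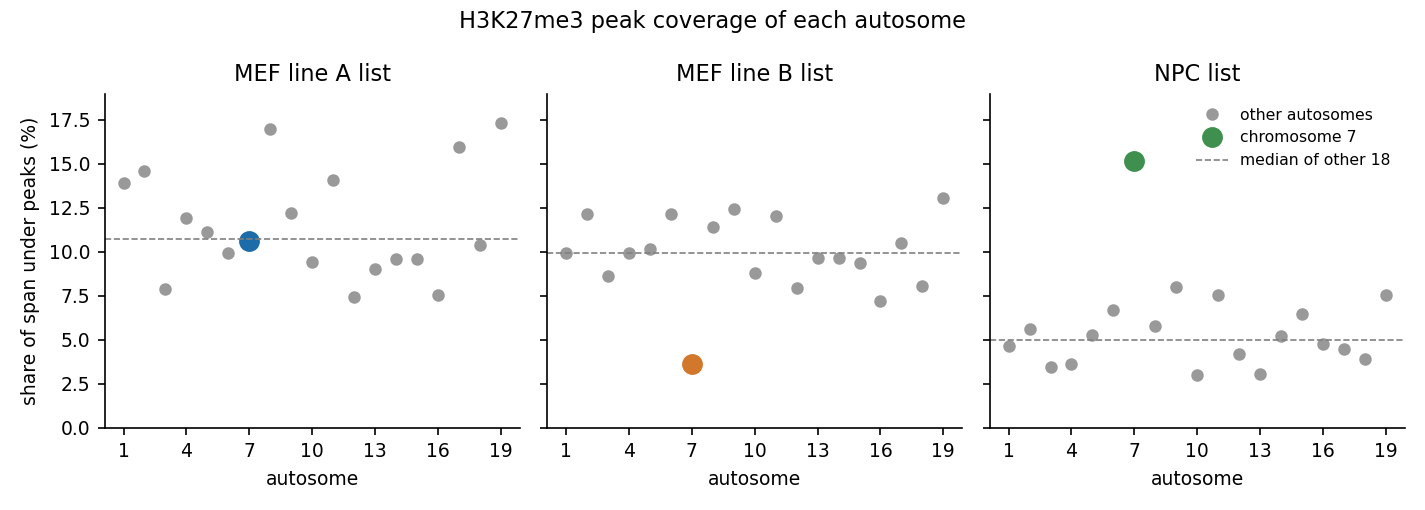
Share of the span of each autosome under H3K27me3 peaks, in percent, for the 3 lists; each point is 1 autosome, the coloured point is chromosome 7 and the dashed line is the median of the other 18. Chromosome 7 lies at 10.6% in line A, near the median, at 3.62% in line B, below every other autosome, and at 15.2% in NPC, above every other autosome.

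Covered length on chromosome 7 in line B was 0.342 times that in line A (5.15 Mb against 15.1 Mb). On the other autosomes this ratio ran from 0.660 to 1.23, and it was 0.883 over all 18 together. NPC covered 21.6 Mb, 1.43 times line A, where the other autosomes gave 0.280 to 0.677. The widths of the peaks followed the same order. The median width on chromosome 7 was 1488 bp in line A, 1001 bp in B and 1700 bp in NPC, against 1415, 1127 and 1426 bp elsewhere. Peaks of at least 10 kb made up 6.10% of the chromosome 7 peaks of line A, 2.21% of those of line B and 6.72% of those of NPC. Elsewhere the shares were 6.57%, 5.81% and 4.93%. Chromosome 16 (976.5 bp) and chromosome 3 (985 bp) had narrower line B medians than chromosome 7. The widest peak of line A (chr7:48946653-49045042, 98.4 kb) lay in Nav2, a gene for a neuron navigator protein. That of NPC (chr7:96458881-96624436, 166 kb) lay in Tenm4, a teneurin cell adhesion gene. That of line B (chr7:62212813-62253559, 40.7 kb) overlapped no protein-coding record; NPC covered all of it and line A none.

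The chromosome was divided into 30 windows of 5 Mb, numbered from the centromeric end, the last of which is only partly filled. Coverage was uneven in all 3 lists. From windows 1 to 15 to windows 16 to 30 the covered length went from 4.88 to 10.2 Mb in line A, from 2.30 to 2.85 Mb in line B and from 7.81 to 13.8 Mb in NPC. Line A ranged from 0.0713% to 29.7% of a window (median 7.76%), line B from 0 to 9.76% (median 3.15%) and NPC from 0.0603% to 36.5% (median 12.3%). The lowest value of each list is that of window 30, whose share was taken over a full 5 Mb. Among the other windows the lowest were 0.185% in line A (window 2), 0.186% in line B (window 3) and 3.93% in NPC (window 2). Line A exceeded line B in 28 of 30 windows, where 57.4% of the 502 windows of all autosomes did so. NPC exceeded line A in 21 of 30, against a background of 23.5%, and exceeded both MEF lines in 21, against 16.5%. NPC exceeded line B in all 30 windows. In the 28 windows where line A covered at least 1%, the ratio of line B to line A had a median of 0.426 (0.108 to 1.58). It was under 0.5 in 17 of these windows, or in 53 of 439 such windows elsewhere (12.1%; median ratio 0.898). The median ratio of NPC to line A was 1.38, against 0.405 elsewhere.

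**Figure D2:**
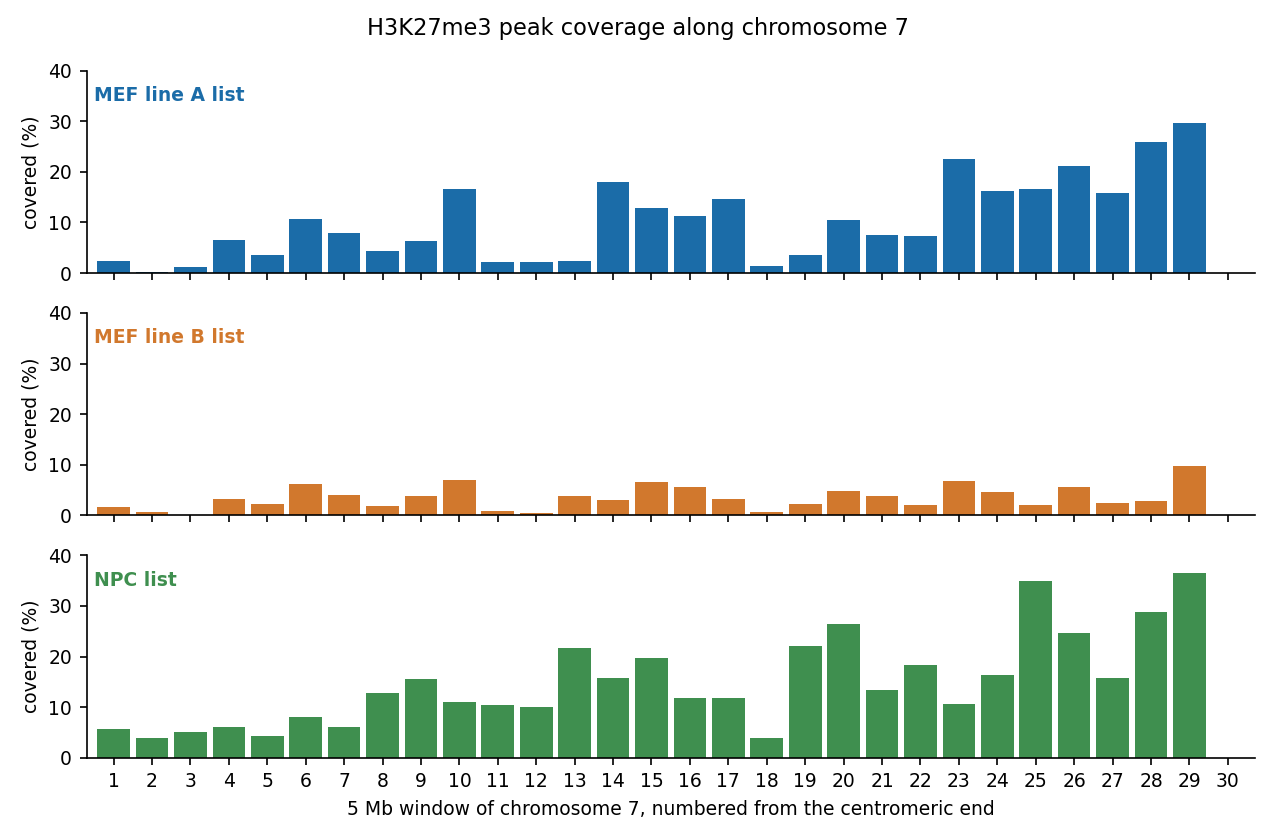
Share of each 5 Mb window of chromosome 7 under peaks, in percent, 1 panel for each list and 1 bar for each of 30 windows numbered from the centromeric end. The tallest bars of NPC are windows 29 (36.5%) and 25 (34.9%), the tallest of line A are windows 29 (29.7%) and 28 (25.9%), and no bar of line B exceeds 9.76%.

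The windows did not share 1 profile. Window 29 (140 to 145 Mb), with the Igf2 and Kcnq1 imprinted cluster, was the highest of every list: 29.7% in line A, 9.76% in B and 36.5% in NPC. Window 28 (135 to 140 Mb) was covered to 25.9% in line A and 28.9% in NPC but to 2.80% in line B, a ratio of 0.108 that was the lowest among windows with at least 1% in line A. Window 25 (120 to 125 Mb) was nearly as far apart, at 16.6% in line A, 2.00% in B and 34.9% in NPC. Window 14 (65 to 70 Mb) gave 17.99%, 3.01% and 15.8%. Line B exceeded line A in windows 2 (0.587% against 0.185%) and 13 (3.78% against 2.40%). Window 13 (60 to 65 Mb) holds Ndn and Magel2, and NPC covered 21.7% of it, 9.06 times line A. Window 23 (110 to 115 Mb) leaned the other way, with 22.6% in line A, 6.72% in B and 10.7% in NPC. Over windows 1 to 15 line B covered 0.471 times the length of line A, and over windows 16 to 30 only 0.279 times. NPC covered 1.60 and 1.35 times the length of line A in the same parts. The lower coverage of line B was thus spread over the chromosome, with the lower ratio in the distal windows.

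**Figure D3:**
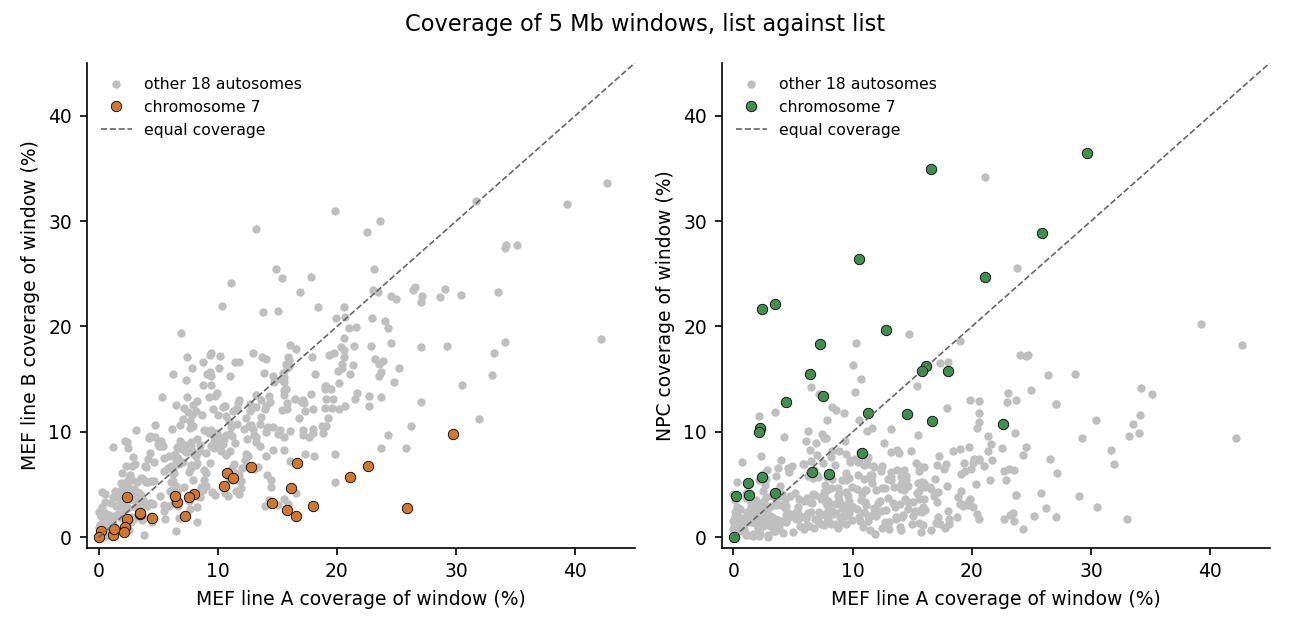
Coverage of 5 Mb windows, in percent, line B (left) and NPC (right) against line A; each point is 1 window, coloured points are chromosome 7, grey points the other 18 autosomes, and the dashed line marks equal coverage. On chromosome 7, 28 of 30 windows lie below the line for line B and 21 of 30 lie above it for NPC.

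Broad domains were formed by joining peaks less than 3 kb apart. Line A had 61 such domains of at least 50 kb on chromosome 7, line B 11 and NPC 64, where no other autosome had more than 27 in NPC or fewer than 26 in line B. Of the joined length of the 61 line A domains, line B peaks covered 21.8% and NPC peaks 44.1%. For the 1065 line A domains elsewhere these shares were 53.3% and 18.9%. In line B, 16 of the 61 domains (26.2%) held no peak at all, beside 78 of 1065 (7.32%) elsewhere. The longest of line A (chr7:115827402-116065488, 238 kb) lay over Sox6, a transcription factor of cartilage, muscle and neuron development. Line B covered 0% and NPC 1.21% of it. The next lay over Nav2 (199 kb, line B 27.4%, NPC 19.1%), Kcnq1, a potassium channel gene of the imprinted cluster (156 kb, line B 33.7%, NPC 87.3%), and Fam174b (146 kb, line B 34.1%, NPC 39.5%).

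Line B had 11 broad domains, of which 3 held no line A peak. The longest (chr7:79525083-79648741, 124 kb) lay over Rhcg, an ammonia transporter gene, and matched a line A domain of 123 kb at almost the same position; NPC covered 29.0% of it. The second lay in Spon1, which encodes the matrix protein F-spondin (75.3 kb, line A 50.3%, NPC 0%). The third held the olfactory receptor genes Olfr520 and Olfr521 (71.6 kb, line A 61.7%, NPC 20.7%). The fourth (chr7:62208122-62271764, 63.6 kb) had no protein-coding gene and was covered to 98.5% in NPC and 0% in line A. It lies beside Ndn and Magel2, which were themselves inside a line B domain of 57.0 kb that line A left bare and NPC filled. In NPC the longest domains lay over Hs3st4, a heparan sulfate sulfotransferase gene (313 kb, 0% in both MEF lines), and Tenm4 (231 kb, line A 37.2%, line B 4.42%). Adamtsl3 with Saxo2 (160 kb, 5.45% and 5.28%) and Kcnq1 with Cdkn1c (151 kb, 92.8% and 34.7%) followed.

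Of the 4920 line A peaks on chromosome 7, 1300 shared 1 bp or more with a line B peak. This was 26.4% (95% exact binomial interval 25.2% to 27.7%), where all autosomes together gave 47.5% and the other 18 ran from 42.1% to 61.2%. Intervals here cover counting error only. In the other direction 1658 of 2535 line B peaks overlapped line A, 65.4%, with 50.7% over all autosomes and 39.3% to 62.2% on the others. The few line B peaks were thus found at line A positions more often than on any other autosome, although 15 of the 18 others were lower when 50% of both peaks had to be shared (14.3%). Line A peaks overlapped NPC peaks in 51.2% of cases (15.2% to 31.8% elsewhere) and line B peaks did so in 56.1% (13.6% to 26.7% elsewhere). NPC peaks overlapped line A in 2116 of 6012 cases (35.2%, all autosomes 45.8%) and line B in 960 (15.97%, all autosomes 38.3%). At every width the share of line A peaks found in line B was lower on chromosome 7. In 4 equal groups of line A peaks, from narrowest to widest, the share was 10.7%, 16.8%, 28.5% and 48.6% on chromosome 7, and 31.3%, 39.0%, 52.1% and 73.0% elsewhere.

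By bases, 30.9 Mb of chromosome 7 lay under a peak of any list. NPC alone covered 13.9 Mb of it (45.1%), line A alone 6.89 Mb, and line A with NPC 4.92 Mb. All 3 lists shared 2.00 Mb, the MEF lines without NPC 1.28 Mb, and line B alone held 1.12 Mb (3.62%). On the other autosomes NPC alone made up 13.1% of the covered bases, line B alone 22.4% and the MEF lines without NPC 22.3%.

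A gene was counted as covered if 1 of the ends of its record had a peak within 2 kb. Of the 2025 protein-coding genes of chromosome 7, 474 were covered in line A (23.4%, all autosomes 28.8%) and 321 in line B (15.9%, all autosomes 29.9%). In NPC 710 were covered (35.1%, all autosomes 21.3%). All 3 lists covered 211 genes, a share near the background (10.4% against 11.2%). NPC alone covered 324 (16%, background 5.25%), and line A with NPC covered 143 (7.06%, all autosomes 2.80%). The MEF lines without NPC shared only 43 genes, 2.12%, beside 11.5% on the other autosomes.

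**Figure D4:**
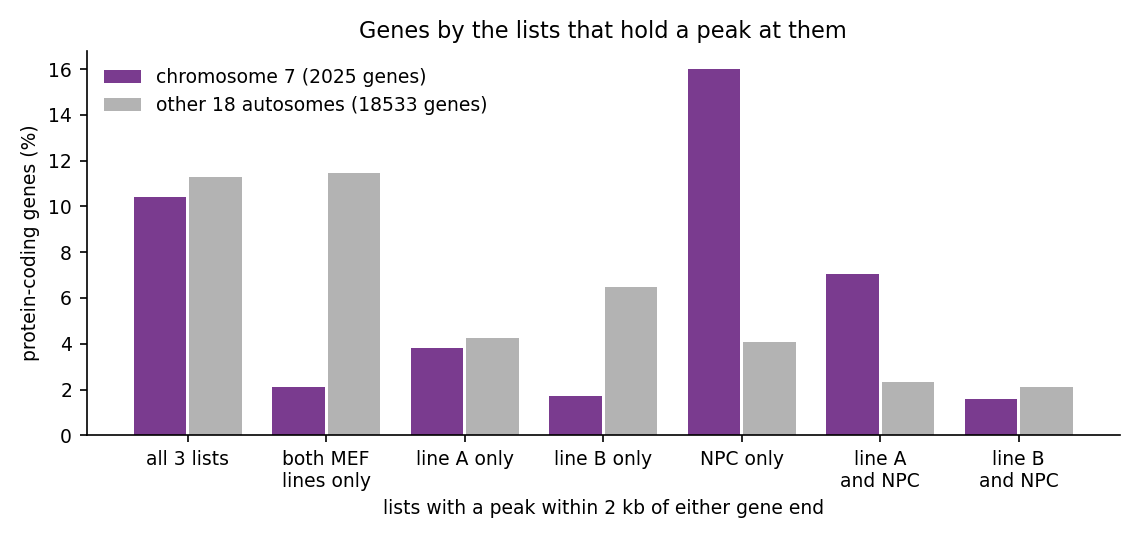
Share of protein-coding genes, in percent, by the lists that hold a peak within 2 kb of either gene end, for chromosome 7 and the other 18 autosomes. The bars for all 3 lists are close (10.4% and 11.3%), the bar for NPC only is higher on chromosome 7 (16% against 4.07%) and that for both MEF lines only is lower (2.12% against 11.5%).

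Line B kept 254 of the 474 genes covered in line A, 53.6% (49.0% to 58.2%). Every other autosome kept 72.4% to 82.7%. The 254 genes are 12.5% of the chromosome, with 21.8% over all autosomes covered in both lines. Line B lacked 220 line A genes, where 7.01% of all autosomal genes are so placed, and had 67 genes that line A lacked, where the background is 8.08%. Kept genes were covered over a median of 6.28 kb within 5 kb of their ends in line A, and lacking genes over 3.73 kb. Elsewhere these medians were 7.49 and 3.76 kb. Of the lacking genes, 24 nonetheless had 10 kb or more of line A coverage. In windows 1 to 15 line B kept 144 of 232 line A genes (62.1%, 55.5% to 68.3%), and in windows 16 to 30 it kept 110 of 242 (45.5%, 39.1% to 52.0%). Of the windows with line A genes and 0 kept, window 24 had the most, 10, followed by window 3 with 7 and window 19 with 4. Named from window 24 after their values were seen are Sox6 (8.10 kb in line A), the synaptotagmin gene Syt17 (6.97 kb), the transmembrane channel-like gene Tmc5 (5.22 kb) and the acyl-CoA synthetase gene Acsm4 (10.0 kb). The rule reads gene ends only, so a lacking gene can hold line B peaks further inside, as Tmc5 did over 15.97% of its record and Acsm4 over 1.62%. Sox6 and Syt17 had 0% of their records under line B peaks.

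The 6 genes named for all 3 lists had the most covered length within 5 kb of their ends, ranked by the lowest of the 3 lists. Hmx3, a homeobox gene of the inner ear, had 13.3 kb in line A, 14.4 kb in B and 14.5 kb in NPC. Ascl2, an imprinted gene for a bHLH factor of the trophoblast, had 11.5, 11.7 and 12.4 kb. Slc17a7, a vesicular glutamate transporter, had 12.9, 12.95 and 13.5 kb, and its neighbour Pth2, a neuropeptide gene, 12.1 kb in each. Rhcg had 14.7, 15.2 and 12.8 kb, and Art2b, an ADP-ribosyltransferase gene, 19.5, 17.6 and 16.1 kb. The ranking itself selects genes covered broadly in every list.

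The 6 genes named for both MEF lines without NPC were ranked in the same way. Nova2, a neuronal splicing factor, had 14.6 kb in line A, 13.2 kb in B and 0 in NPC. Lrrc4b, a synaptic adhesion gene, had 12.9, 13.5 and 0 kb. Nkx1-2, whose promoter is printed above, had 13.4, 8.98 and 0 kb. Myh14, a non-muscle myosin heavy chain, had 10.0 and 9.54 kb, Spon1 7.31 and 9.003 kb, and Rassf10 7.41 and 9.54 kb. NPC held 0.394 kb near Rassf10 and 0 near the other 5.

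Line A genes without a line B peak fell into those shared with NPC and those of line A alone. Cyp2e1, a liver enzyme that oxidises ethanol, had 18.98 kb in line A, 0.947 kb in B and 20 kb in NPC. Calcb, which encodes a calcitonin gene-related peptide, had 14.9, 0 and 14.6 kb. Nps had 13.1, 0 and 12.8 kb, and Syce1, a synaptonemal complex gene, 12.5, 0 and 11.4 kb. Caly had 14.6, 3.04 and 14.8 kb and Klk1b4 10.9, 1.34 and 13.1 kb, the line B peaks lying more than 2 kb from the gene ends. Among genes of line A alone, Galnt18, a glycosyltransferase gene, had 19.4 kb and Arnt2, a bHLH-PAS transcription factor gene, 18.8 kb, with 0 in both other lists. Cyp2r1, a vitamin D 25-hydroxylase gene, had 12.7 kb and Hapln3, a hyaluronan link protein gene, 10.6 kb, with 0 in line B and 1.33 kb in NPC at each. Mesp2 had 7.22 kb, with 0 in line B and 0.345 kb in NPC. Art5 had 6.48 kb, with 0.837 kb in line B more than 2 kb from its ends and 0 in NPC.

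Line B had few genes of its own, and most were covered over shorter stretches. Dll3, a Notch ligand of somite formation, had 9.52 kb in line B, 2.89 kb in line A more than 2 kb from its ends, and 0 in NPC. Itgal, an integrin of leukocytes, had 6.76 kb in line B and 4.70 kb in line A. Tjp1, a tight junction gene, had 5.85 kb, Aplp1, an amyloid precursor-like gene, 5.80 kb, Pde3b, a phosphodiesterase gene, 5.54 kb and Lrfn1, a synaptic adhesion gene, 5.44 kb. Line A held at most 0.495 kb near these 4. Shared by line B and NPC, with 0 kb in line A, were Magel2 (9.83 kb in line B, 14.7 kb in NPC), Ndn (7.28 and 11.7 kb) and Pcsk6, a proprotein convertase gene (8.67 and 9.35 kb). Tm6sf1, Iglon5 and Dnaaf3 followed with 4.70 to 5.81 kb in line B.

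Of the 324 genes covered at their ends in NPC alone, 6 are named by the same ranking. Adamtsl3, a matrix glycoprotein gene, had 20 kb in NPC, and Ovch2 had 17.0 kb, with 0 in both MEF lines. Tenm4 had 14.6 kb near its ends and 0 in both MEF lines, although peaks covered 18.1% of its record in line A and 6.59% in B. Insc, a gene of spindle orientation, had 14.7 kb in NPC and 5.73 kb in line A, where 55.0% of its record was covered at a distance from its ends. Il11, a cytokine gene, had 15.7 kb in NPC, 1.91 kb in line A and 2.02 kb in B. Anks4b had 14.9 kb.

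**Figure D5:**
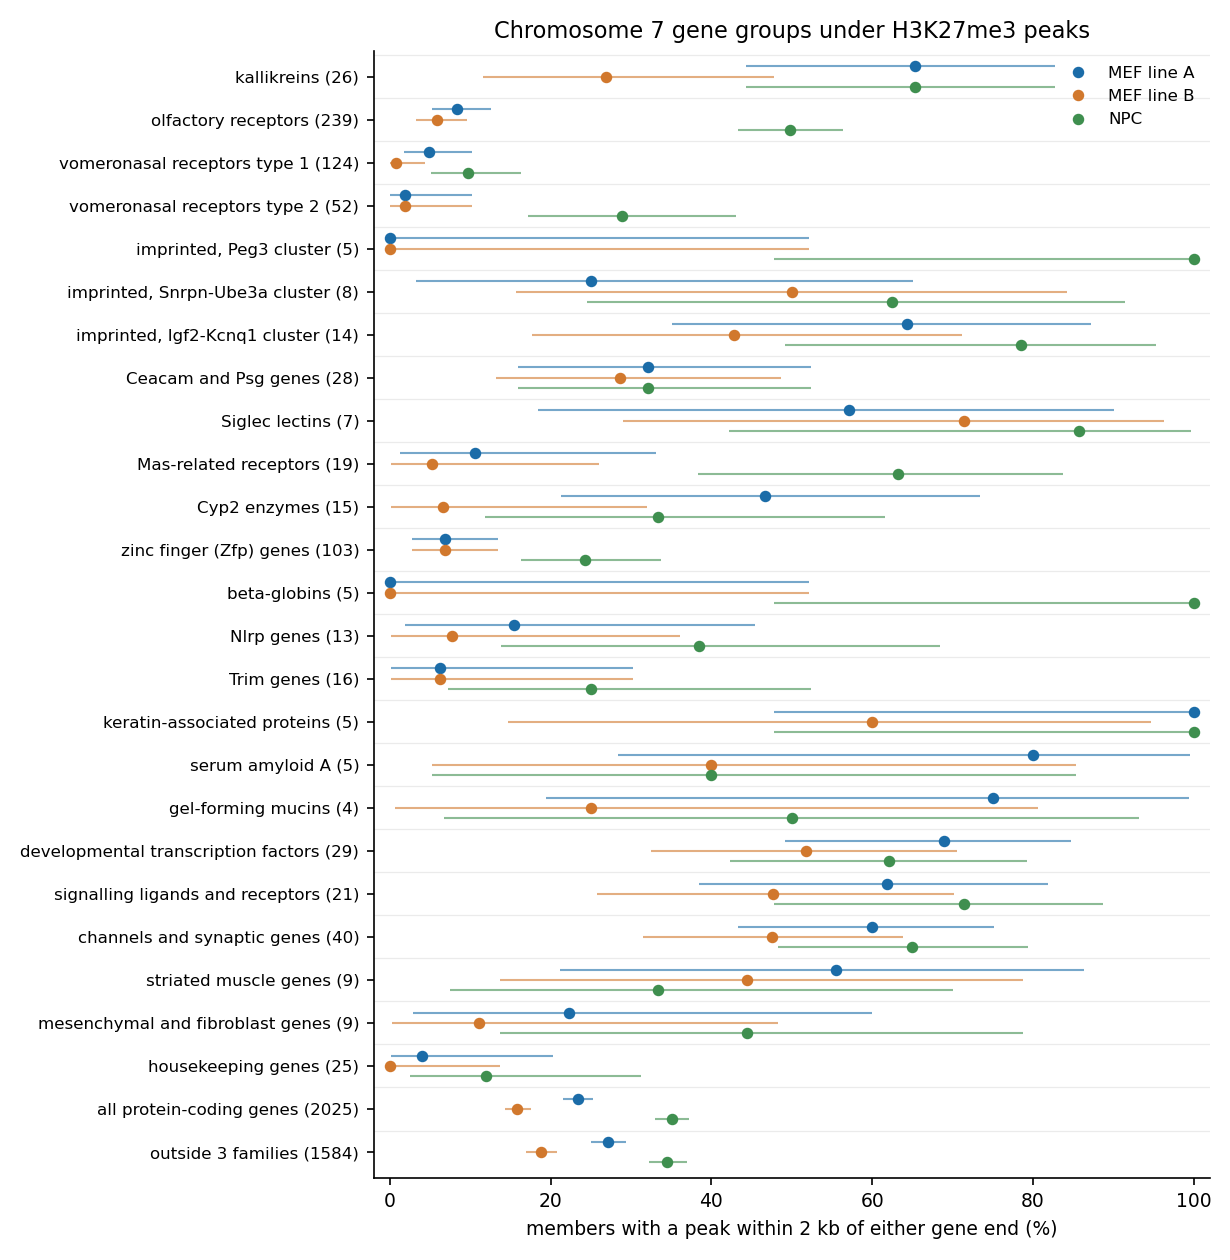
Share of the members of 24 gene groups, and of 2 reference sets, with a peak within 2 kb of either gene end, in percent, with 95% exact binomial intervals (counting error only); the number of members stands in brackets. NPC lies above both MEF lines for olfactory receptors (49.8% against 8.37% and 5.86%), beta-globins and the Peg3 cluster, and line B lies below line A for kallikreins (26.9% against 65.4%) and Cyp2 enzymes (6.67% against 46.7%).

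Gene groups are read beside the shares of all 2025 chromosome 7 genes, which were 23.4% in line A, 15.9% in B and 35.1% in NPC. Developmental transcription factors were covered in all 3 lists more often than the genes of the chromosome at large. Of 29, 20 had a peak in line A (69.0%), 15 in B (51.7%) and 18 in NPC (62.1%), with median covered lengths of 4.73, 0.201 and 3.21 kb where the median chromosome 7 gene had 0 in each list. Line B kept 14 of the 20 line A genes. Beside Hmx3 and Ascl2, these included Hmx2 (13.8 kb in line A, 14.9 kb in B), Dbx1, a gene of spinal interneurons (10.9 and 11.7 kb), and Meis3 (12.1 and 8.94 kb). Dmrtc2 (13.6 and 8.17 kb), Pou2f2 (7.02 and 6.51 kb), Myod1, the muscle master regulator (8.12 and 4.11 kb), and Foxa3, a liver factor (4.02 and 3.22 kb), were kept as well. Crx, a photoreceptor factor, counted as kept on only 0.201 kb in line B beside 10.4 kb in line A. Bnc1 had 4.78 and 3.21 kb, with 20 kb in NPC.

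The 6 factors that line B lacked were Sox6 (8.10 kb in line A), Mesp2 (7.22 kb), Spib, a factor of B cells (4.10 kb), Mesp1, a gene of early heart mesoderm (3.99 kb), Tshz3 (3.28 kb) and Phox2a, a gene of autonomic neurons (1.56 kb). All 6 had 0 kb in line B. Lmo1 was counted in line B (2.80 kb) and not in line A, whose 2.92 kb lay more than 2 kb from its ends. Covered in both MEF lines and not in NPC were Nkx1-2, Ebf3 (7.76 and 2.27 kb) and Nkx6-2 (4.73 and 3.68 kb), the last 2 with 0 and 1.42 kb in NPC. Covered at their ends in NPC only were Zfp536 (10.0 kb), Fosb (3.02 kb) and Nr2f2 (1.39 kb). Further inside the Zfp536 record, line A peaks covered 11.1% of it. Six5, Cebpa, Klf13, Mef2a and Tbx6 had no peak on their records in any list.

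Of 21 signalling genes, 13 were covered in line A (61.9%), 10 in B (47.6%) and 15 in NPC (71.4%). The fibroblast growth factor genes Fgf3, Fgf4 and Fgf15 lie together and were covered in all lists. Fgf3 had 11.0 kb in line A, 10.8 kb in B and 14.7 kb in NPC, and Fgf4 11.2, 9.72 and 12.6 kb. Fgf15 kept only 3.48 kb in line B beside 11.98 kb in line A. Calca, the calcitonin gene, had 20 kb in line A and NPC and 9.37 kb in line B, while its neighbour Calcb had none in line B. Wnt11, a Wnt ligand (7.71, 6.75 and 10.0 kb), Nell1 (3.80, 2.80 and 11.9 kb), Dkkl1 (4.22, 3.64 and 1.31 kb) and Ntf5, a neurotrophin gene (1.81, 3.29 and 9.37 kb), were covered in all lists too. Line B lacked Pth, the parathyroid hormone gene (11.6 kb in line A, 7.51 kb in NPC), Ntrk3, a neurotrophin receptor (6.50 and 10.0 kb), Tgfb1 (4.96 and 10.5 kb), Calcb and Igf2. Igf2 was lacking only by the 2 kb rule, since line B held 2.90 kb within 5 kb of its ends beside 5.65 kb in line A and 9.10 kb in NPC. Dll3 and Fzd4, a Wnt receptor (3.33 kb), were covered in line B alone, and Tenm4 and Igf1r in NPC alone (4.499 kb at Igf1r, with 2.74 kb in line A more than 2 kb from its ends). Rgma, Adm and Fgfr2 had 0 kb in any list, and Fgf21 0.481 kb in line A more than 2 kb from its ends.

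Ion channel, transmitter receptor and synaptic genes were covered in 24 of 40 cases in line A (60%), 19 in B (47.5%) and 26 in NPC (65%). Kcnq1 led in line A and NPC with 18.2 and 20 kb, and had 4.79 kb in line B. Shank1, a synaptic scaffold gene, had 14.4, 7.33 and 9.59 kb in line A, line B and NPC. Its paralogue Shank2 had 13.2 kb in line A and 11.0 kb in NPC but 0.893 kb in line B. The GABA receptor genes Gabrg3 and Gabra5 were covered in NPC (11.8 and 5.38 kb), with 0 in both MEF lines.

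The imprinted cluster from H19 to Osbpl5 (chr7:142575530-143757008, 1181 kb) was densely covered in line A and NPC. Peaks covered 47.1% of it in line A, 17.9% in B and 54.8% in NPC, and 9, 6 and 11 of 14 genes had a peak. Slc22a18, a transporter gene, had 18.6 kb in line A, 6.32 kb in B and 20 kb in NPC. Th, tyrosine hydroxylase, had 10.9, 1.64 and 13.9 kb, and Phlda2, a gene of placental growth, 7.43, 3.85 and 10.6 kb. Ins2, an insulin gene, had 0.840, 0.629 and 8.68 kb. With Ascl2 and Kcnq1 these were the 6 genes line B kept. It lacked 3: Igf2, Cdkn1c, a cell cycle inhibitor (7.98 kb in line A, 2.21 kb in B, 6.22 kb in NPC), and H19, a maternally expressed noncoding RNA (4.28, 0.662 and 4.70 kb). Cd81 and Tssc4 had 0.445 kb in NPC and 0 in the MEF lines. Tspan32 and Nap1l4 had 0 kb in all 3 lists. Osbpl5 had 1.54 kb in line A and 0.467 kb in NPC more than 2 kb from its ends. Of the 9 genes covered in line A, Ascl2 was the 1 with as much coverage in line B.

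The Snrpn-Ube3a cluster showed another order. The block from Ndn to Peg12 (chr7:62348277-62464510, 116 kb) was covered to 7.76% in line A, 55.1% in B and 59.2% in NPC. Ndn and Magel2 had 0 kb in line A, and Snurf had 0.406 kb in line A, 4.27 kb in B and 3.17 kb in NPC. Mkrn3 was covered in all 3 lists (4.38, 2.18 and 4.91 kb), and Peg12 in line A only by the 2 kb rule (1.82, 1.30 and 0 kb). Over the proximal block (chr7:58656142-60450177, 1794 kb, from Atp10a to Snurf) coverage was 1.69% in line A, 0.576% in B and 13.4% in NPC. Atp10a had 4.49 kb in NPC and 0 in the MEF lines. Ube3a, the ubiquitin ligase of the cluster, had 0 kb in all 3 lists, and Snrpn had 0.314 kb near its ends in NPC alone. Further inside the Snrpn record, NPC peaks covered 39.3%, line B peaks 2.11% and line A peaks 0.906%.

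The Peg3 cluster (chr7:6651748-6976662, 325 kb) was covered in NPC alone, to 15.6% of its length against 0% in both MEF lines. All 5 matched genes, of which Zim2 and Zim3 are noncoding records, had an NPC peak. Zim1 had 9.11 kb, Zim2 7.93 kb, Usp29 5.18 kb, Zim3 1.19 kb and Peg3 itself, a zinc finger gene expressed from the paternal allele, 0.465 kb. The peak lists do not tell parental alleles apart.

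The kallikrein cluster (chr7:43680880-44229622, 549 kb) holds 26 genes for secreted serine proteases. Peaks covered 14.3% of it in line A, 4.38% in B and 30.2% in NPC, and 17, 7 and 17 members had a peak. The cluster had 2 parts. At the Klk14 end, Klk13 (3.21 kb), Klk9 (0.453 kb), Klk8 (0.919 kb) and Klk14 (0.196 kb) were covered in line A alone, with 0 in line B and NPC. At the Klk1 end the Klk1b genes were broadly covered in NPC and partly in line A. Klk1b4 had 10.9 kb in line A, 1.34 kb in B and 13.1 kb in NPC, Klk1b5 6.44, 2.06 and 11.9 kb, Klk1 5.78, 2.72 and 8.996 kb, and Klk1b24 4.42, 1.47 and 10.4 kb. Klk1b8 had 13.03 kb in NPC and 0 in both MEF lines. Between the 2 parts, Klk5, Klk4 and Klk15 were covered in all 3 lists, with Klk15 at 0.554, 1.24 and 9.29 kb. Only Klk7 was covered in line B alone (1.61 kb).

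Some receptor and Klk1b genes are recent duplicates of similar sequence. The sources used here do not say how reads that map to several copies were treated, so values of close copies are uncertain. Of 239 olfactory receptor genes, line A had a peak at 20 (8.37%), line B at 14 (5.86%) and NPC at 119 (49.8%, 43.3% to 56.3%). The median covered length of the 239 was 0.798 kb in NPC and 0 in each MEF line, so the members named below are among the most covered. Of the 864 on other autosomes, 18.8% had a peak in line A, 22.9% in B and 19.3% in NPC. There, NPC lay between the MEF lines. In the cluster from Olfr693 to Olfr519 (chr7:106677534-108894405, 67 genes) both MEF lines covered 0%, and NPC covered 14.8% with a peak at 32 genes. In the largest cluster, from Olfr543 to Olfr692 (chr7:102476773-105369317, 126 genes), line A covered 3.49%, line B 2.56% and NPC 16.6%. All 13 of its genes with a line A peak lay between Olfr544 and Olfr78, at its proximal end. Among them, Olfr558 had 7.42 kb in line A, 5.71 kb in B and 19.7 kb in NPC, Olfr547 9.05, 8.13 and 8.41 kb, and Olfr555 8.94, 6.48 and 11.0 kb. Olfr516, with its promoter printed above, had 11.0 kb in NPC and 0 in both MEF lines. The distal cluster from Olfr522 to Olfr541 was covered in line A to 8.59%, in line B to 0.342% and in NPC to 26.8%. Olfr524 there had 7.35 kb in line A, 0 in B and 13.9 kb in NPC.

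Vomeronasal receptor genes had few peaks. Of 124 type 1 genes, 6 had a peak in line A, 1 in B and 12 in NPC. Line A and NPC shared 5 neighbours, Vmn1r85 to Vmn1r89, with 0.885 to 6.14 kb in line A and 2.15 to 11.0 kb in NPC, and none of these was covered in line B by the 2 kb rule. Of 52 type 2 genes, 1 had a peak in line A, 1 in B and 15 in NPC, led by Vmn2r57 (16.4 kb), Vmn2r77 (9.71 kb) and Vmn2r74 (8.91 kb). Of both types together on other autosomes, 16.6% of 175 had a peak in line A, 21.1% in B and 23.4% in NPC. Mas-related receptors, which serve itch and pain neurons, were covered at 2 of 19 genes in line A, 1 in B and 12 in NPC. Mrgprg had the most in line A and NPC (6.06 and 7.88 kb), with 0 in line B.

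The beta-globin cluster (chr7:103812524-103853207, 40.7 kb) had an NPC peak at all 5 genes matched and a MEF peak at none. Hbb-y, the embryonic globin, had 5.96 kb in NPC, Hbb-bt 4.94 kb and Hbb-bs 3.58 kb. Line B held 0.677 kb near Hbb-bh2 more than 2 kb from its ends, and line A held 0 near every member. Zinc finger genes named Zfp and their relatives were mostly bare, with a peak at 7 of 103 in each MEF line and 25 in NPC. Zfp541 (10.5, 3.61 and 11.1 kb) and Zfp941 (13.02, 9.25 and 12.2 kb) were covered in all lists.

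Cyp2 enzymes of drug and hormone metabolism were covered at 7 of 15 genes in line A, 1 in B and 5 in NPC. Cyp2g1 was the 1 covered in line B (3.404 kb, with 2.63 kb in line A and 9.78 kb in NPC). Cyp2e1 and Cyp2r1 are given above. Cyp2b10 had 7.29 kb in line A, 0 in B and 8.81 kb in NPC, Cyp2f2 5.14, 0 and 1.44 kb, and Cyp2s1 4.75, 0 and 6.19 kb. Carcinoembryonic and pregnancy-specific glycoprotein genes were covered in 9, 8 and 9 of 28 cases (32.1%, 28.6% and 32.1%), and the intervals of line A and NPC, both 15.9% to 52.4%, held the shares of all chromosome 7 genes. Ceacam15 had 11.0, 3.63 and 8.92 kb, Psg16 6.56, 4.38 and 7.32 kb and Ceacam10 5.81, 5.21 and 10.7 kb. Siglec lectins had a peak at 4, 5 and 6 of 7 genes. Siglech had 13.8, 7.47 and 11.9 kb, Cd22 of B cells 9.08, 3.27 and 10.5 kb, and Mag of myelin 9.06, 4.58 and 6.67 kb. Cd33 and Siglecf were covered mainly in NPC (15.3 and 12.2 kb).

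All 5 keratin-associated protein genes of hair were covered in line A and NPC, and 3 in line B. Krtap5-5 had 8.91 kb in line A, 9.64 kb in B and 9.75 kb in NPC, while Krtap5-4 had 11.0, 2.28 and 7.91 kb. Serum amyloid A genes were covered at 4 of 5 members in line A, 2 in B and 2 in NPC, with Saa3 at 5.96, 4.59 and 2.29 kb and Saa4 at 7.30, 1.87 and 2.65 kb. Gel-forming mucins had a peak at 3, 1 and 2 of 4 genes. Muc2 had 8.02, 4.40 and 11.9 kb, and Muc5ac 9.97, 0.622 and 7.37 kb, with line B peaks over 28.0% of its record. Nlrp genes had 2, 1 and 5 of 13, with Nlrp6 at 11.7, 9.99 and 14.3 kb. Trim genes had 1, 1 and 4 of 16, led by Trim6 in NPC (6.07 kb) and Trim66 in line A (4.97 kb).

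The group of striated muscle genes was covered at 5 of 9 genes in line A, 4 in B and 3 in NPC. It includes Myh14, a non-muscle myosin gene, which counts as covered in both MEF lines. Tnnt3, a troponin gene, had 9.22 kb in line A, 0 in B and 6.66 kb in NPC, and Mybpc2 4.35, 0 and 6.93 kb, with line B peaks over 22.1% of its record further inside. Tnni3, the cardiac troponin I gene, was covered in line B alone (2.98 kb). Genes of mesenchyme and fibroblasts had a peak at 2 of 9 in line A (22.2%, Tgfb1 and Adam12), 1 in B (11.1%, Pcsk6) and 4 in NPC (44.4%), near the shares of all chromosome 7 genes. Serpinh1, the collagen chaperone, had 0 kb in all 3 lists. Of 25 housekeeping genes 1 was covered in line A, 0 in B and 3 in NPC, each over at most 3.46 kb. Outside chromosome 7, 9 fibroblast markers had a peak at 1 in line A (Col1a1), 0 in B and 2 in NPC (Fn1 and Pdgfrb). Of 8 neural progenitor markers, 6 had a peak in line A, 7 in B and 0 in NPC. Over all autosomal genes the shares were 28.8% in line A, 29.9% in B and 21.3% in NPC. The lists show no expression and the markers are few, so the marker counts check the labels only as far as a peak goes.

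With all gene families in, promoters under line B peaks had a higher median number of CG than those under peaks of the other lists. In the 300 bases from 250 before to 50 after a RefSeq start, the median chromosome 7 gene held 7 CG. The median was 12 under a line B peak (116 genes), 8 under a line A peak (153) and 6 under an NPC peak (302), and 58.6%, 43.8% and 42.4% of these held 10 or more. These under-peak medians were not computed without olfactory, vomeronasal and kallikrein genes. Of the 239 olfactory receptor genes, 119 had an NPC peak and 14 a line B peak. By gene, leaving out olfactory, vomeronasal and kallikrein genes, the median was 8 for those kept from line A in line B (188) and 7 for those lacking (151). With the same exclusion, the median of all chromosome 7 genes was 13 (1344). The genes of line B without line A had 16 (47 genes). Genes with no peak in any list had 15. On the other autosomes the medians of the kept, lacking and line B genes were 9, 8 and 15, in the same order. The median of all genes there was 16, so the line B genes lay below it, and on chromosome 7 above it. Genes of NPC alone had 11 after that exclusion (182) and 3 with the receptor and kallikrein genes in (285).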

How the data were processed

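CUT&RUN (NPC) and ChIP-seq (2 MEF lines) measured H3K27me3. The files are 3 peak lists deposited by the authors, each holding peak positions in 3 columns with no score and no value per library. Tools named in the submitters' processing notes, without their roles, are MACS2 2.1.1.20160309, deepTools, DESeq2, Bowtie2 2.2.9 and Picard; dm6 and mm10 are the builds listed there. The sources used here do not give the aligner settings, peak threshold, control, pooling or treatment of multi-mapping reads. Depth is unknown, so precision per peak is too.

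Peak lengths, overlaps and gene counts were computed in Python 3.11.15 with numpy 2.4.6, pandas 2.3.3 and scipy 1.17.1, and the code was tested on simulated data. Genes were RefSeq records on GRCm38.p6, leaving out 333 records not on the assembled autosomes (10 of them assigned to chromosome 7). A gene counted as covered with a peak no further than 2 kb from one of its ends. Covered length in kb is peak length within 5 kb of either end, at most 20 kb. Joined domains are peaks less than 3 kb apart. Gene groups came from 24 lists, with 159 of 160 named symbols matched. Named genes were the 6 with the most covered length in each category, without predicted genes, members of the imprinted, transcription factor and signalling lists, and leading members of the other groups. Any other gene named was picked with its values in view. The chromosome, the groups and the lists were chosen with earlier results of these data known. With 1 list for each cell system no test was made. Shares carry exact (Clopper-Pearson) 95% intervals for counting error only. Alternatives were the widest 44807 peaks of each list, peaks of at least 1 kb, joined peaks, other windows, a stricter overlap and other gene rules. Some members of the ion channel and receptor list are not reported here.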

Additional observations from a re-analysis of the deposited data

How the results depend on the processing

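The placement of chromosome 7 among the autosomes held under the peak alternatives run. The line B to line A length ratio was 0.334 with the widest peaks only, 0.321 with peaks of at least 1 kb and 0.354 with joined peaks, below every other autosome each time, and the NPC to line A ratio was above every other autosome each time. The share of line A genes kept in line B was 59.6% within 5 kb, 36.4% at both ends, 28.9% with 50% of the record covered, 47.5% with peaks of at least 1 kb and 47.7% over the promoter window. It was the lowest of the 19 autosomes in every setting compared, which did not include the promoter window. Line A peaks overlapping line B made up 7.38% with 50% of both peaks shared and 28.2% with the widest peaks, and line B peaks overlapping line A 14.3%, 67.8% and, with peaks of at least 1 kb, 70.2%. At 14.3%, 15 of the 18 other autosomes were lower, in place of all 18. NPC peaks overlapping line A made up 9.73% and 27.9%. Line A exceeded line B in 100.0% of 10 Mb windows, 83.6% of 2 Mb windows and 90% of shifted windows, beside 93.3% as reported. Gene counts depended on the rule. At both ends, with 50% of the record covered and over the promoter window, line A had 206, 135 and 153 genes, line B 100, 52 and 116, and NPC 314, 211 and 302. Both MEF lines shared 75, 39 and 73 (400 within 5 kb), line A without line B had 131, 96 and 80, and line B without line A 25, 13 and 43. Of 468 alternative cluster values, 95 moved by more than 1.5 times. No paired analysis was possible because the lists hold no values per library; for the same reason no replicate could be left out. The lists carry no reads, so depth, copy number and peak height were not analysed here.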

Other observations

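Noncoding genes of chromosome 7 were read by the same lists, as values with no test, and those named were chosen after their values were seen. Of 83 microRNA hairpin records, 10 lay under a line A peak, 2 under a line B peak and 12 under an NPC peak, and 0 lay under a peak in all 3 lists. Line A and NPC without line B shared 7, and NPC alone had 4. Peaks of line A covered 10.6% of the chromosome span, those of line B 3.62% and those of NPC 15.2%. No share is given for hairpins of the other autosomes, so the counts do not show whether hairpins were covered unusually often. A hairpin touched only partly was counted too, as line A peaks covered 3.53% of the Mir3105 record and 12.8% of that of Mir6401. Mir9-3, which encodes a microRNA of neural progenitors and neurons, was the 1 hairpin under a peak in both MEF lines and not in NPC. Its record (chr7:79505264-79505353, plus strand) was covered to 100% in both MEF lines and 0% in NPC, and its host gene Mir9-3hg had 18.9 kb in line A, 20 kb in line B and 0 in NPC. Mir202, known from the gonads, had 10.1 kb in line A, 0 in line B and 1.499 kb in NPC, and its hairpin lay under a peak in line A and NPC. Mir7-2 lay under a line A peak only, with 7.11 kb in line A, 4.88 kb in line B and 0.686 kb in NPC. Mature sequences annotated at these 3 genes, from RefSeq on GRCm38.p6 with the seed (bases 2 to 8) in capitals, are shown. They were not checked for being unique to these loci.
miR-9-5p: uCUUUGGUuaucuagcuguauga
miR-9-3p: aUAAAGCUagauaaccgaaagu
miR-202-3p: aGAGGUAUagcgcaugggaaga
miR-7a-5p: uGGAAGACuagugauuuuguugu
The 4 seeds differ.

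Among long noncoding RNAs of the imprinted cluster, Kcnq1ot1, the paternally expressed antisense transcript in Kcnq1, had 9.10 kb in line A, 1.59 kb in line B and 10.0 kb in NPC near its ends. Igf2os had 5.40, 6.78 and 11.1 kb.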
